A study of Homo sapiens with 6 samples.

Results

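Absorptive enterocyte and brush-border genes were followed in BxPC-3 xenografts, tumors of an established human line of pancreatic adenocarcinoma, after treatment with the oral iron chelator deferasirox (DFX). The 32 genes were listed by symbol, and each spot whose gene name on the array equaled one of the symbols was assigned to that gene, which gave 40 of the 50599 probes on the array. The genes were chosen by their difference in normalized intensity between the DFX and control tumors of this same experiment, together with their known place in enterocytes, so that difference is described here and carries no test. The study compared 3 tumors from mice given vehicle alone (Control) with 3 tumors from mice given DFX by mouth at 200 mg/kg, 3 times per week, and all were collected after 21 days. The tumors of both groups grew from cells of this single line under the skin of the back of female nude mice (BALB/c nu/nu, 8 to 10 weeks of age), and treatment began at a tumor volume of 150 mm3. Nude mice lack T cells but keep stroma, vessels and other leukocytes, so a whole tumor could also hold mouse RNA.

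Absorptive enterocytes line the small intestine and take up sugars, amino acids and fat. Their luminal surface, the brush border, is a dense layer of microvilli built on actin bundles and covered with digestive enzymes and transporters. Absorbed fat is carried by fatty acid binding proteins and leaves the cell in lipoproteins assembled on apolipoproteins, a route that hepatocytes share in part. Normal pancreatic duct and acinar cells do not run this program, although pancreatic adenocarcinomas can express intestinal genes.

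Each tumor was hybridized to its own array, and values below are quantile-normalized log2 intensities. Between 50.3% and 56.5% of all probes were well above background per array, and log2 intensities of the arrays correlated at 0.980 to 0.990. All arrays lay on 1 slide with the controls in row 1 and the DFX tumors in row 2, so the slide row and the treatment cannot be told apart. Of the 32 genes, 24 had a probe that passed the detection filter, out of 23810 gene names tested. No probe of FABP2, APOA4, APOB, APOC3, SLC2A2, CDH17, MEP1B or SLC26A3 passed it. On every array 11 genes were well above background, and 6 (FABP2, APOB, A1CF, CDHR5, MEP1B and SLC26A3) on none. SI, APOA4, APOC3, ALPI, GUCA2A and GUCY2C were well above background on at least 1 DFX array and on no control array. SLC2A2 was well above background on a single array, that of control replicate 3. Per tumor, 18, 18 and 13 of the 32 genes were well above background in control replicates 1, 2 and 3, and 23, 24 and 21 in DFX replicates 1, 2 and 3.

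Most of the tested genes were brighter in the DFX tumors. By group means 22 of 24 were higher and 2 (SLC2A5 and CDHR5) were lower, with a median log2 difference of 1.33 against -0.012 over all tested gene names. In 11 of the 24 genes every DFX tumor lay above every control tumor and in 0 below, while 6.93% and 8.45% of all gene names had those orders. A log2 difference of 1 or more was found in 15 genes (10 without control replicate 3) and in 1.45% of all gene names. In the limma fit 12 genes, all higher in DFX tumors, had an unadjusted p under 0.05, and the share of all gene names with such a p was 7.91% in either direction and 3.63% in that direction. As the list was drawn from this contrast, nothing is read from these shares. After Benjamini-Hochberg adjustment 0 of the 31807 tested probes passed in limma, where 2675 (8.41%) had an unadjusted p under 0.05. In the Kruskal-Wallis H test 4927 had such a p and 0 passed. With 3 against 3 tumors the lowest p of that test lies just under 0.05, and only groups without overlap reach it. Its 0 after adjustment therefore carries no information. In whole-tumor RNA a larger number of expressing cells cannot be told apart from more RNA per cell.

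**Figure D1:**
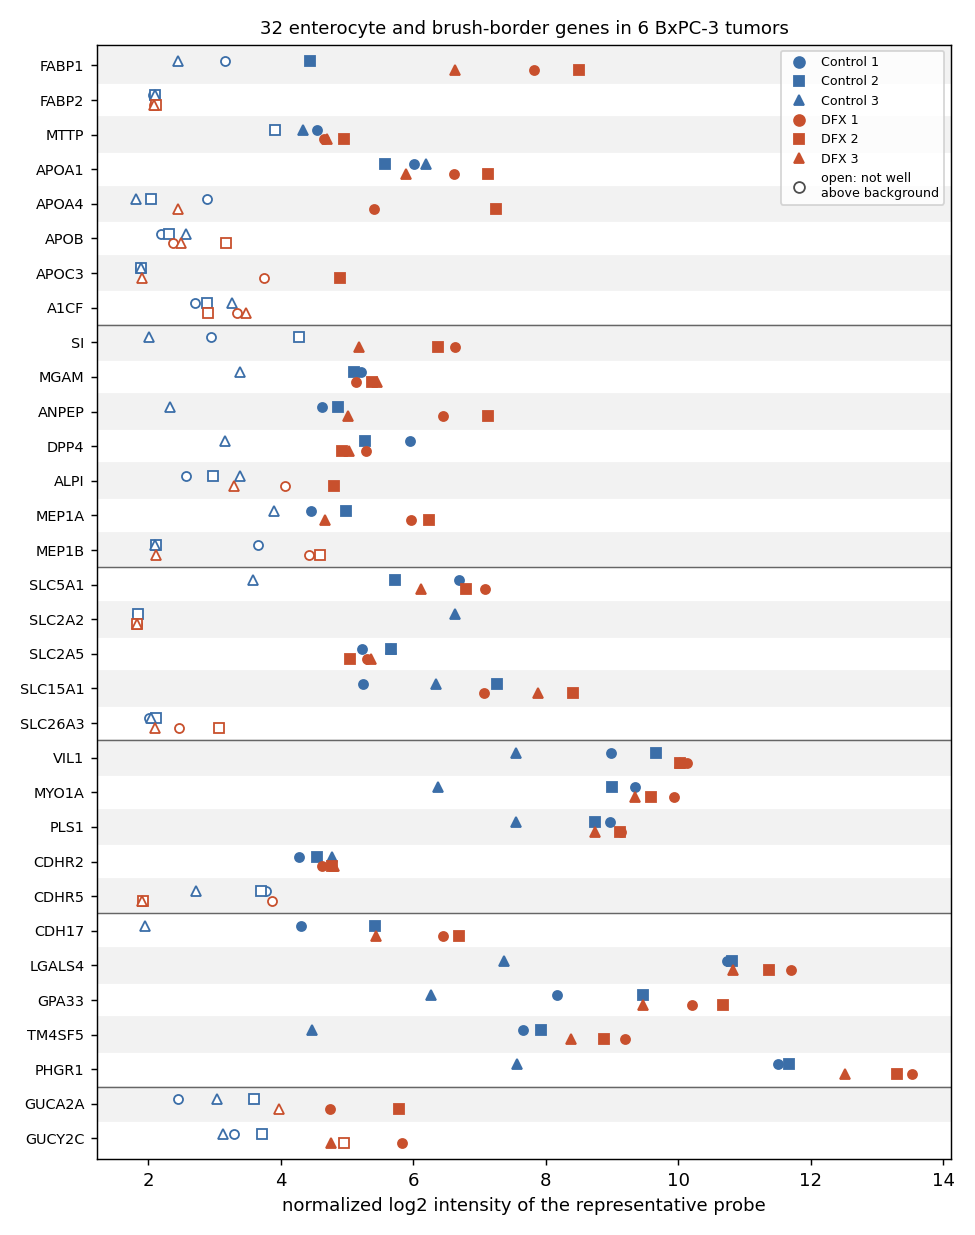
Normalized log2 intensity (horizontal axis) of the representative probe of each of the 32 genes in 3 control (blue) and 3 DFX-treated (red) tumors, with open symbols where the array did not measure the probe well above background and lines between functional groups. Control replicate 3 (blue triangle) lies far to the left of the other controls for PHGR1, LGALS4, TM4SF5 and MYO1A.

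The control tumors were not alike. Control replicate 3 was the lowest control in 16 of the 24 tested genes (66.7%), against 35.6% of all gene names, and control replicate 2 was the highest in 13. Among the treated tumors DFX replicate 3 was the lowest in 17 of 24 genes (70.8%, against 38.7% of all gene names). Relative to the control mean of each gene, the median of the 24 genes was 0.23, 0.54 and -0.89 in control replicates 1, 2 and 3, and 1.46, 1.51 and 0.92 in DFX replicates 1, 2 and 3. Over all gene names the same medians lay between -0.018 and 0.012. Without control replicate 3 the median log2 difference of the 24 genes was 0.75, and 21 of them were higher by mean. The number of genes with an unadjusted p under 0.05 was 6 without DFX replicate 1 and 4 without DFX replicate 2. Without DFX replicate 3, 17 genes had no overlap, a count that cannot fall when a tumor is left out.

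**Figure D2:**
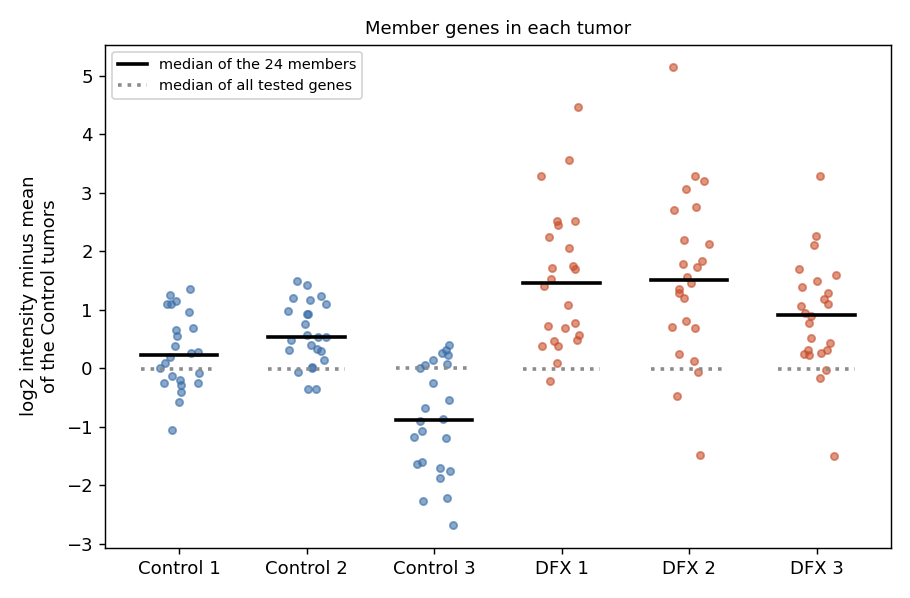
Deviation of each of the 24 tested genes from its control mean (log2, vertical axis) in each of the 6 tumors, with a point per gene and a line at the median. The medians were 0.23, 0.54 and -0.89 in the controls and 1.46, 1.51 and 0.92 in the DFX tumors, and control replicate 3 has the lowest median.

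Fat uptake and lipoprotein assembly comprised 8 genes. FABP1, the fatty acid binding protein shared by enterocytes and hepatocytes, had log2 intensities of 3.16, 4.45 and 2.45 in control replicates 1, 2 and 3 and of 7.82, 8.50 and 6.64 in DFX replicates 1, 2 and 3. All 3 treated tumors lay at least 2.19 above the brightest control, and only control replicate 2 was well above background in the control group. The difference was 4.30 (standard error 0.66), and 3.85 without control replicate 3. This was the largest difference among the tested genes of the list with the background subtracted, but it was 1.93 with normexp correction and 1.70 without background correction, below the 2.72 and 2.69 of PHGR1. A second FABP1 probe was not well above background on any array, at 2.03 to 2.07 in the controls and 2.04, 4.55 and 2.05 in the DFX tumors. The 250 bases before the FABP1 start are printed because they hold the letters of CDX sites, a family of intestinal transcription factors whose levels are described further on. The sequence is from RefSeq (GRCh38.p14), chr2:88128063-88128312, minus strand, 5′ to 3′, and capitals mark the reverse complement of TTTATNG (CDX, bases -90 to -84 and -32 to -26 from the start).
FABP1: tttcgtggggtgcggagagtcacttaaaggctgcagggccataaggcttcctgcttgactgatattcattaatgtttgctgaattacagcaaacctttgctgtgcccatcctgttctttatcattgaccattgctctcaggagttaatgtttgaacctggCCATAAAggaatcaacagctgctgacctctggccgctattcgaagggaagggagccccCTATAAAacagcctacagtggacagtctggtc
The CDX letters nearest the start overlap a TATAAA.

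MTTP, which loads lipid onto nascent lipoproteins, was at 4.55, 3.91 and 4.33 in the controls and at 4.65, 4.95 and 4.70 in the DFX tumors. The groups did not overlap, but their difference was only 0.51 (standard error 0.19), and 0.33 without control replicate 2. The probes of APOA4, APOC3 and APOA1, apolipoproteins of chylomicrons and high-density lipoprotein, lie next to one another on chromosome 11 (hg19; 116691711 to 116691770, 116703530 to 116703589 and 116706641 to 116706700). APOA4 was at 2.88, 2.05 and 1.81 in the controls and at 5.41, 7.25 and 2.45 in the DFX tumors. With the background subtracted, it was at least 2.10-fold higher in DFX tumors by group means, carried by DFX replicates 1 and 2. DFX replicate 3 lay within the control range. APOC3 was at 1.88, 1.89 and 1.88 in the controls and at 3.74, 4.90 and 1.90 in the DFX tumors, well above background only in DFX replicate 2. APOA1 was measured well above background in all tumors, at 6.02, 5.57 and 6.20 in the controls and 6.62, 7.13 and 5.89 in the DFX tumors, so that the groups overlapped (difference 0.62, standard error 0.34). A second APOA1 probe, which did not pass the detection filter, was at 2.32, 2.44 and 2.41 in the controls and 3.69, 4.91 and 2.95 in the DFX tumors, without overlap, and was well above background only in DFX replicate 2. In each of these neighboring genes DFX replicate 2 was the brightest tumor and DFX replicate 3 the dimmest treated one. APOB, the structural protein of chylomicrons, FABP2, the intestinal fatty acid binding protein, and A1CF, a cofactor of APOB messenger RNA editing, were not well above background in any tumor.

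Among the 7 brush-border hydrolases, SI, the sucrase-isomaltase of the small intestine, was at 2.96, 4.28 and 2.01 in the controls and at 6.64, 6.37 and 5.18 in the DFX tumors. No control array and every DFX array measured it well above background. With the background subtracted, the DFX group was at least 4.17-fold higher by group means. The measured difference was 2.99 (standard error 0.65), and 2.45 without control replicate 3. It was only 0.94 with normexp correction and 0.77 without background correction, smaller than that bound. The SI promoter is shown beside that of FABP1 because it also held the CDX letters. Its sequence (RefSeq, GRCh38.p14, chr3:165078497-165078746, minus strand, 5′ to 3′) has the reverse complement of TTTATNG in capitals at bases -52 to -46.
SI: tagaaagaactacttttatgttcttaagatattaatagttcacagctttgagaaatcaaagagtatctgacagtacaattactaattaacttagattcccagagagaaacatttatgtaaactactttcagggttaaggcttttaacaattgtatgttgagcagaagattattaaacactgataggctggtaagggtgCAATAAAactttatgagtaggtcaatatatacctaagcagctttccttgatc

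ANPEP, aminopeptidase N of the brush border, was at 4.62, 4.86 and 2.33 in the controls and at 6.45, 7.14 and 5.01 in the DFX tumors. The groups did not overlap, with a gap of 0.15 between control replicate 2 and DFX replicate 3. The difference was 2.26 (standard error 0.84), and 1.46 without control replicate 3. MEP1A, the alpha subunit of the secreted and membrane-bound protease meprin, was at 4.45, 4.98 and 3.90 in the controls and at 5.96, 6.24 and 4.66 in the DFX tumors. DFX replicate 3 lay inside the control range, and the difference was 1.18 (standard error 0.48; 0.91 without control replicate 3). MEP1B, the beta subunit, was not well above background in any tumor. ALPI, intestinal alkaline phosphatase, was at 2.57, 2.98 and 3.39 in the controls and at 4.06, 4.81 and 3.30 in the DFX tumors. It was well above background only in DFX replicate 2, and the groups overlapped, with DFX replicate 3 below control replicate 3. By group means the DFX group was at least 1.07-fold higher, but this bound includes DFX replicates 1 and 3 as measured. The ALPI difference was 0.70 without DFX replicate 2, against 1.08 with all tumors. MGAM, the maltase-glucoamylase that digests starch fragments, was at 5.22, 5.10 and 3.38 in the controls and 5.14, 5.38 and 5.46 in the DFX tumors. Its difference of 0.76 (standard error 0.50) was 0.17 without control replicate 3. DPP4, a dipeptidyl peptidase that trims proline-containing peptides, was at 5.95, 5.27 and 3.16 in the controls and 5.29, 4.93 and 5.04 in the DFX tumors, and its difference went from 0.29 (standard error 0.69) to -0.53 without control replicate 3.

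The 5 transporters differed among themselves. SLC15A1, the proton-coupled peptide transporter, was at 5.24, 7.27 and 6.34 in the controls and at 7.06, 8.41 and 7.89 in the DFX tumors. DFX replicate 1 lay below control replicate 2, and the difference was 1.50 (standard error 0.58), 1.53 without control replicate 3 and 0.98 without control replicate 1. A second SLC15A1 probe, farther from the 3′ end of the gene on the minus strand, stayed near the lowest signal on all arrays. SLC5A1, the sodium-coupled glucose transporter, was at 6.69, 5.73 and 3.58 in the controls and at 7.08, 6.79 and 6.11 in the DFX tumors. The groups overlapped, and the difference of 1.33 (standard error 0.79) was 0.45 without control replicate 3 and 2.01 without control replicate 1. SLC2A5, the fructose transporter, was at 5.23, 5.67 and 5.66 in the controls and 5.30, 5.05 and 5.36 in the DFX tumors, a difference of -0.28 (standard error 0.17). Its other tested probes differed by 0.03 and -0.20. SLC2A2, the glucose transporter of the enterocyte's basal side, was at 6.63 in control replicate 3 and between 1.83 and 1.84 in all other tumors. This value rests on 1 spot of 1 array, and whether it comes from the tumor or from the spot was not tested. SLC26A3, a chloride-bicarbonate exchanger, was not well above background in any tumor.

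The 5 scaffold and cadherin genes include 4 that were well above background in all tumors. VIL1 encodes villin, which bundles actin in microvilli, and was at 8.99, 9.66 and 7.55 in the controls and at 10.14, 10.03 and 10.03 in the DFX tumors. The treated tumors lay close to one another and all above the controls. The difference was 1.33 (standard error 0.51), or 2.52-fold, and 1.67-fold without control replicate 3. MYO1A, the myosin that ties actin bundles to the microvillus membrane, was at 9.35, 9.00 and 6.37 in the controls and at 9.93, 9.59 and 9.35 in the DFX tumors. DFX replicate 3 exceeded control replicate 1 by only 0.0021, so the groups nearly touched. The difference of 1.38 (standard error 0.78) was 0.45 without control replicate 3. PLS1, the plastin of microvillus actin bundles, was at 8.98, 8.74 and 7.56 in the controls and 9.14, 9.13 and 8.74 in the DFX tumors, with a difference of 0.58 (standard error 0.38) that was 0.14 without control replicate 3. CDHR2, a protocadherin that links the tips of microvilli, ranged over 4.28 to 4.77 in the controls and 4.62 to 4.80 in the DFX tumors. CDHR5, its partner, was not well above background in any tumor.

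The surface and adhesion genes included those in which control replicate 3 lay farthest below the other controls. PHGR1, a small histidine- and glycine-rich protein of intestinal epithelium, was at 11.51, 11.67 and 7.57 in the controls and at 13.53, 13.31 and 12.51 in the DFX tumors (chromosome 15, 40648544 to 40648603, hg19). The gap between the groups was 0.85, and control replicate 3 minus the mean of the other controls was -4.01. The difference was 2.87 (standard error 1.12), or 7.30-fold, and 2.89-fold without control replicate 3. TM4SF5, a tetraspan membrane protein, was at 7.65, 7.93 and 4.48 in the controls and at 9.20, 8.88 and 8.39 in the DFX tumors. The groups did not overlap, and the difference of 2.14 (standard error 0.93) was 4.40-fold, or 2.05-fold without control replicate 3. GPA33, an immunoglobulin-like antigen of intestinal epithelium, was at 8.17, 9.47 and 6.27 in the controls and at 10.21, 10.68 and 9.47 in the DFX tumors. DFX replicate 3 and control replicate 2 were level, at a gap of -0.00021, and the difference of 2.15 (standard error 0.81) was 4.44-fold, or 2.47-fold without control replicate 3. LGALS4, an intestinal galectin of lipid rafts, was at 10.74, 10.82 and 7.37 in the controls and at 11.70, 11.38 and 10.82 in the DFX tumors. Its groups were apart by only 0.0034, and the difference of 1.66 (standard error 0.95), or 3.15-fold, was 1.43-fold without control replicate 3. CDH17, the liver-intestine cadherin, did not pass the detection filter, with control replicate 3 at 1.95, the other controls at 4.31 and 5.43 and the DFX tumors at 6.45, 6.69 and 5.44. Its measured difference of 2.30 was 1.32 without control replicate 3.

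**Figure D3:**
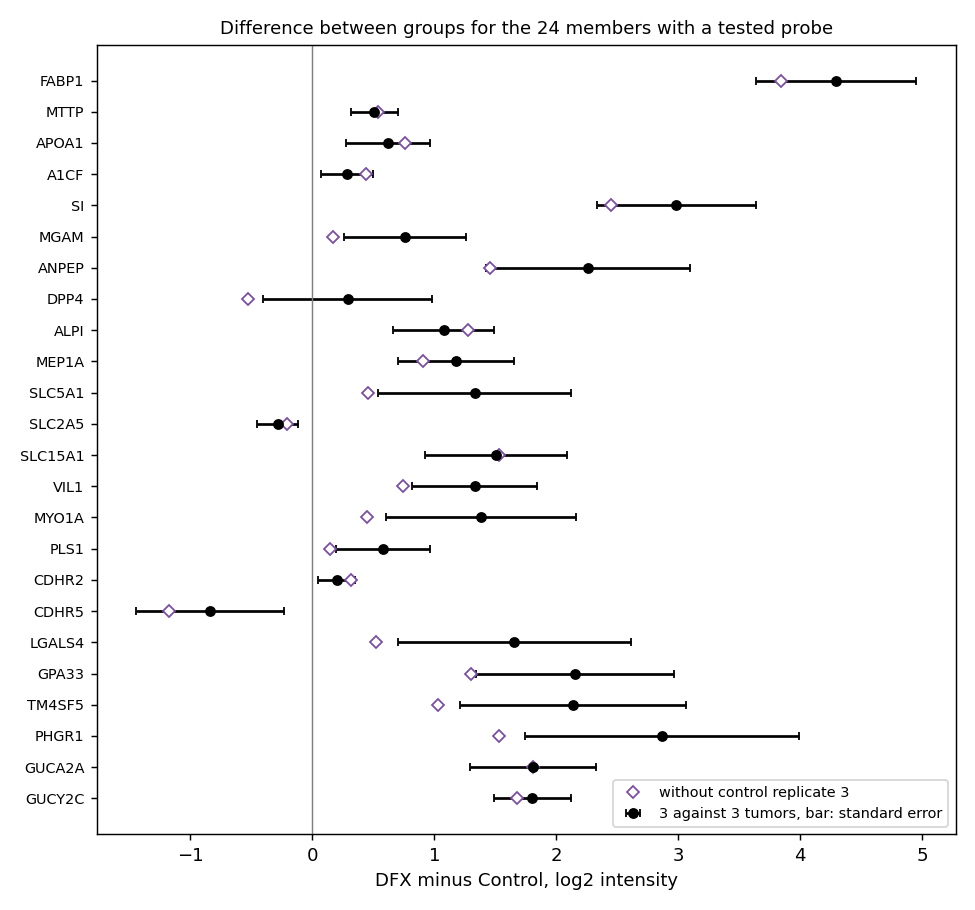
Difference between DFX and control tumors (log2, horizontal axis) of the 24 tested genes, with circles for all 6 tumors, bars for the standard error of the limma fit and open diamonds for the value without control replicate 3. With the background subtracted, as plotted, FABP1 has the largest difference at 4.30, and PHGR1 goes from 2.87 to 1.53 without control replicate 3.

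Both genes of guanylin signaling were dim in the controls. GUCA2A encodes guanylin, the peptide that regulates salt and water secretion, and GUCY2C its receptor, a membrane guanylate cyclase. GUCY2C was at 3.30, 3.71 and 3.13 in the controls and at 5.84, 4.95 and 4.77 in the DFX tumors, apart by 1.05. GUCA2A was at 2.45, 3.60 and 3.04 in the controls and at 4.75, 5.79 and 3.98 in the DFX tumors, apart by 0.37. With the background subtracted, the DFX group means were at least 2.33-fold higher for GUCY2C and at least 1.83-fold higher for GUCA2A. No control array measured either gene well above background, and DFX replicates 1 and 3 did so for GUCY2C and DFX replicates 1 and 2 for GUCA2A. Measured differences were 1.80 (standard error 0.32) for GUCY2C and 1.81 (standard error 0.51) for GUCA2A, and 0.29 and 0.33 without background correction. The GUCA2A promoter (RefSeq, GRCh38.p14, chr1:42164746-42164995, minus strand, 5′ to 3′) is shown for its pair of GATA letters, the reverse complement of AGATAA in capitals at bases -130 to -125 and -105 to -100.
GUCA2A: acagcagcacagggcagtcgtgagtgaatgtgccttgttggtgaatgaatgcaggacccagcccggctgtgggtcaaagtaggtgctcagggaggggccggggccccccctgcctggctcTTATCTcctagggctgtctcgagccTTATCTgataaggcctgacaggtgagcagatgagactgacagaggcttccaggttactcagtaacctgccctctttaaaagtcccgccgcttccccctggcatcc

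The promoter table held 29 starts of 23 of the 32 genes, and the 250 bases before each start were searched on both strands for exact letters. TTTATNG (CDX), which can overlap TATAAA, was in 27.6% of these promoters, those of FABP1, MTTP, SI, MEP1B, SLC2A5, MYO1A and PLS1, and in 8.93% of all 35116 promoters. A match overlapped TATAAA in FABP1, MTTP, MEP1B, SLC2A5 and MYO1A. The matches of SI and PLS1, and a further match each of FABP1 and MYO1A, did not. CAAAGTNCA (HNF4) was in the promoters of MYO1A and TM4SF5, or 6.9% against 0.94%, and AGATAA, the letters of GATA factors, in 17.2% against 9.17%. TATAAA alone was in 20.7% against 10.7%, and the median GC content was 56.8% in the promoters of these genes and 58% in all. Genes with the CDX letters included FABP1, the lower SLC2A5 and MEP1B, which was not well above background.

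The transcription factors that direct intestinal and hepatic fate were given as a second list of 20 genes, of which 15 were tested. CDX2, the homeobox factor of intestinal identity, was at 7.78, 7.77 and 6.58 in the controls and at 8.50, 8.65 and 8.48 in the DFX tumors, with a difference of 1.17 (standard error 0.34). The groups did not overlap, and control replicate 3 was the lowest tumor here too. Without it the CDX2 difference was 0.77. In 3 of the 15 all DFX tumors were above all controls and in 0 below, 1 had an unadjusted p under 0.05, and the median difference was 0.16. The shares over all gene names were 6.93% and 8.45% for these orders and 7.91% for such a p. HNF4A was well above background in 1 DFX tumor only, and GATA5, ISX, ONECUT1, NR1H4 and NR5A2 in none. CDX1, at a difference of 0.06, and GATA6, at 0.16, were well above background in all tumors.

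**Figure D4:**
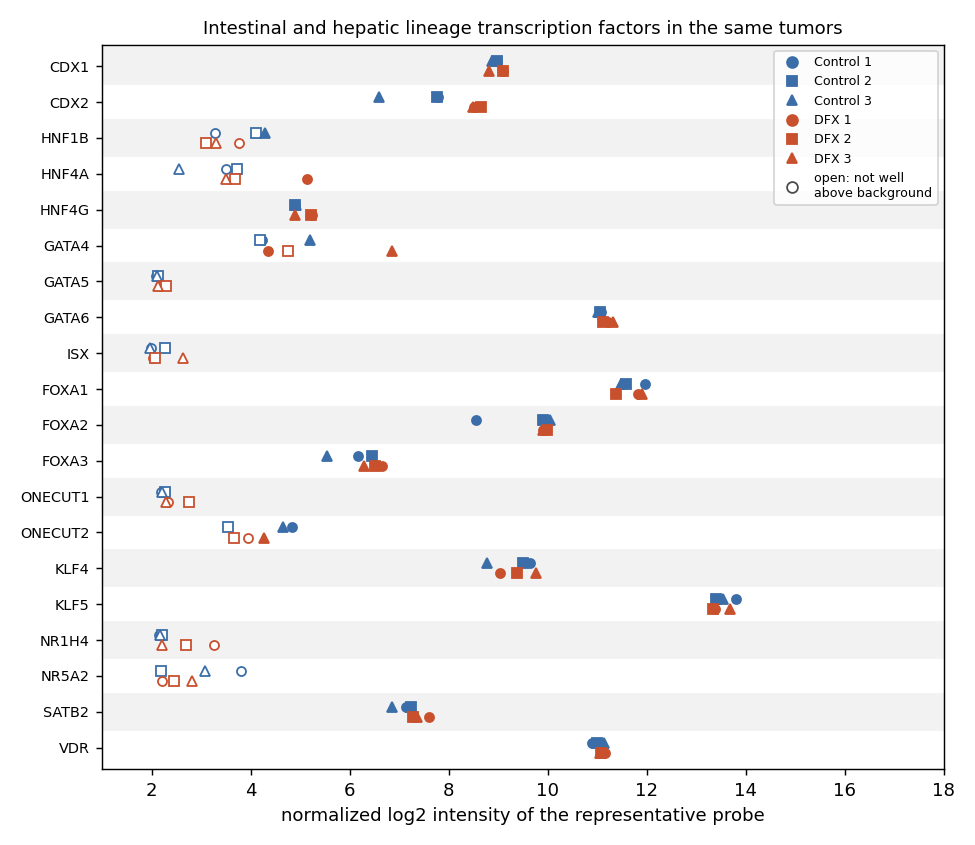
Normalized log2 intensity (horizontal axis) of 20 transcription factors of intestinal and hepatic lineages in 3 control (blue) and 3 DFX (red) tumors, with open symbols for arrays that did not measure the probe well above background. CDX2 lies higher in all DFX tumors and is lowest in control replicate 3, at 6.58.

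Further genes of absorptive cells were taken from a list of their own. Of these 40 genes, 38 were on the array and 23 were tested, and 3 had no overlap with DFX higher and 1 with DFX lower. Their median difference was 0.12, 15 were higher and 8 lower by mean, and the shares over all gene names without overlap were 6.93% higher and 8.45% lower. CA1, a carbonic anhydrase of colonic epithelium, had the largest difference of the tested genes, 2.74 (standard error 0.94). Its groups overlapped, at 2.74, 5.14 and 1.98 in the controls and 6.10, 7.09 and 4.89 in the DFX tumors. KRT20, a keratin of mature surface epithelium, was higher by 2.46 (standard error 0.64), CREB3L3, a membrane-bound factor of fat metabolism, by 1.30 (standard error 0.36) and SLC3A1, part of a brush-border amino acid transporter, by 1.16 (standard error 0.51). Without control replicate 3 the differences were 2.09 for CA1, 1.78 for KRT20, 1.30 for CREB3L3 and 0.75 for SLC3A1. The median of the tested genes of this list was then 0.05. CLCA4, a chloride channel regulator, had a difference of -0.82 (standard error 0.26), with all DFX tumors below all controls. CD36, a fatty acid transporter, had the lowest difference, -0.97, with overlapping groups. RBP2, the retinol binding protein of enterocytes, did not pass the detection filter, at 2.02, 4.04 and 2.06 in the controls and 6.07, 7.54 and 5.14 in the DFX tumors. It was well above background in every DFX tumor and in no control, the groups did not overlap, and its measured difference was 3.54.

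Markers of other cell types gave these values beside the list. Over all gene names 6.93% had no overlap with DFX higher and 8.45% with DFX lower. With lists this small, nothing is read from the counts without overlap. Of 9 goblet cell genes 8 were tested and 2 (SPINK4 and BEST2) had no overlap with DFX higher, and their summed linear level was 40491 to 192969 in the controls and 165362 to 201159 in the DFX tumors. TFF3, a trefoil peptide of goblet cells, made up most of that sum. Of 12 hepatocyte genes 5 were tested, HP and SERPINA1 were higher in all DFX tumors, and the summed level was 1523 to 2489 in the controls and 6025 to 8308 in the DFX tumors. Most of that sum was HP alone, the gene of the plasma protein haptoglobin, at log2 intensities of 10.38, 11.19 and 10.97 in the controls and 12.69, 12.98 and 12.51 in the DFX tumors. The hepatocyte genes ALB, AFP, TTR, FGB, FGG, APOH and CYP2E1 were not well above background in any tumor. FGA was well above background in all tumors, AHSG in 2 control and 3 DFX tumors and TF in control replicate 1 only, and the groups overlapped for each. All 10 ductal genes were well above background in all tumors, and KRT8, KRT18 and EPCAM were higher in all DFX tumors, by 0.48, 0.27 and 0.43. Of the 10 acinar genes 4 were tested, and of the 9 enteroendocrine genes 4, with no gene apart between the groups in either list. Of 7 Paneth and stem cell genes 2 were tested, and OLFM4 was higher in all DFX tumors, by 1.53. Host fibroblast genes gave 1 higher (LUM) and 1 lower (DCN) of 6 tested, with summed levels of 13692 to 22657 in the controls and 12667 to 15642 in the DFX tumors, and host leukocyte genes gave 0 of 6. PDGFRB and POSTN of the fibroblast list and CSF1R of the leukocyte list were not well above background in any tumor. The probes are human, and whether these signals come from mouse host cells or from the human tumor cells was not tested. The part of these cell types in the differences was not tested.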

How the data were processed

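RNA of 6 tumors, 3 Control and 3 DFX, was measured on one-color human oligonucleotide arrays. Groups and replicate numbers were taken from the labels, and no tumor was left out. The authors deposited linear intensities of each spot, before and after background subtraction, with detection flags and a p-value against the local background, written by Agilent Feature Extraction 10.7.1.1 per the file headers (the labels name 9.5.1.1). Their deposited table of normalized intensities served as an alternative.

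After log2 transformation, the 58717 non-control spots of the background-subtracted signal were quantile-normalized, 1398 outlier values were dropped and replicate spots averaged. Detection required a median background p under 0.05 on each array, met by 31807 of 50599 probes. The DFX and Control groups were fitted with limma 3.58.1 in R 4.3.3 (two-sided, Benjamini-Hochberg adjustment across the whole table). The brightest tested probe stands for its gene. Each bound ("at least") compares the bright group's mean with the dim group's mean after raising each array to its lowest signal well above background (3.84 to 4.69 on the log2 scale). The bright group's mean includes its arrays that were not well above background, as measured. A bound holds for the background-subtracted signal only and takes no account of the spread between tumors. The number of arrays limits the precision, and the p-values measure only the spread between these tumors. The genes and all lists were chosen with earlier results of these data known. Some items of these lists are not reported here. Further genes named from a list are its members apart between the groups, its largest differences, its brightest member or members named for their detection. Positions of probes follow the array's hg19 annotation, and promoters are from the RefSeq table of GRCh38.p14, in which APOA1, APOB, APOC3, MEP1A, VIL1, CDHR5, CDH17, PHGR1 and GUCY2C had no entry.

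On simulated data with 31803 probes for this comparison, limma gave an unadjusted p under 0.05 to 97% of probes changed by 2 and 89% of those changed by 1 on the log2 scale, and to 5.37% of unchanged probes. The changed probes were drawn from all tested probes, each with its own spread between tumors. These shares were not estimated for the listed genes. TM4SF5, for example, had a wide spread and no such p at a difference of 2.14 (standard error 0.93). Alternatives covered normalization, background correction, the filter, outlier flags, the deposited table, the Kruskal-Wallis H test, array weights, a replicate block and each tumor left out.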

Additional observations from a re-analysis of the deposited data

How the results depend on the processing

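Of 414 values of single genes under the alternatives, 397 moved by less than the SD between replicates and 17 by more. With 1 tumor left out, a value cannot move by more than this SD, which pools both groups. The filter settings returned the same values. The 397 was therefore in part fixed in advance and is no measure of stability. The sign of DPP4 turned in 3 settings and that of SLC2A5 in 1. Sizes of dim genes depended on the background. The median difference of 1.33 was 0.43 with normexp correction and 0.39 without background correction, where FABP1 was at 1.70 (against 4.30), SI at 0.77, GUCA2A at 0.33, GUCY2C at 0.29, ANPEP at 0.61, MEP1A at 0.37, ALPI at 0.19 and MTTP at 0.10. It was 0.75 to 1.65 with 1 tumor left out, lowest without control replicate 3. The 12 genes with an unadjusted p under 0.05 became 5 of 32 without the detection filter, 5 of 11 when every array had to exceed its background clearly, and 4 to 11 when tumors were left out singly. The 11 genes without overlap became 5 of 11 under that stricter filter and 12 to 17 when tumors were left out singly, where the count can only stay or rise. Control replicate 3 was lowest in 7 of those 11 genes. Leaving out a DFX tumor cannot change the order of the controls, so this count stayed at 16 of the tested genes there. Apart from that rise and the smaller number of genes under the stricter filter, the cause of these changes was not tested. The Kruskal-Wallis H test gave 11 genes, where 15.5% of all tested probes had such a p. These only repeat the 11 genes without overlap, because with these group sizes such a p requires groups that do not overlap. Over all tested probes, same-numbered tumors did not deviate together (0.0274, 0.0267 and 0.0158 as correlations of their deviations). In the 24 tested genes, however, control replicate 3 was lowest of its group in 16 and DFX replicate 3 in 17. The correlations therefore cannot show whether the numbers mark a pairing. With a replicate block 12 genes had an unadjusted p under 0.05 in limma.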
